A study of Drosophila melanogaster with 3 samples.

Results

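The peaks described here are those of GFP-tagged Pif1A in Drosophila melanogaster pupae that lie inside protein-coding genes but far from any promoter. A peak was included when its summit lay over 2000 bp from every annotated transcription start site (TSS) and within the span of at least 1 protein-coding gene, on the dm6 assembly. The rule used positions and no peak score. Of the 7283 peaks in the authors' optimal list, 2331 (32.0%) met it and are called distal in-gene peaks below. The others comprised 927 peaks equally far from TSSs but between coding genes, 2270 peaks within 500 bp of a TSS, and 1755 beyond that but no more than 2000 bp from one.

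ChIP-seq had been carried out on whole pupae of pooled males and females, of an age given as unknown, with an antibody against GFP. All animals came from 1 transgenic line that carries a C-terminal GFP fusion of Pif1A, and the sources used here do not say whether the untagged protein is still made. The single group, Pif1A-GFP pupae, holds 3 biological replicates, whose peak lists share a control that is not analysed here, and there is no untagged group among the samples. Comparisons are therefore between classes of peaks. No read counts come with the lists, and the depth behind them is unknown. Since whole animals were used, a site bound in few cells cannot be told apart from a site bound weakly in many.

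Sequence that is far from a TSS and inside a gene is mostly intron. In flies, introns of developmental genes often hold enhancers, which bind transcription factors and act on a promoter at a distance, and the first intron is a frequent place for them. Pif1A takes its name from its binding to the PFTAIRE kinase Eip63E. ChIP recovers DNA that a protein contacts directly or through other proteins, without telling these apart.

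To set the spread between replicates beside each value, the list of each replicate was limited to its 7283 highest-scoring peaks. In these, 2087, 2290 and 2232 peaks of replicates 1, 2 and 3 met the rule, which is 28.7%, 31.4% and 30.6% of them (30.2% ± 1.44, SD, n = 3). Sequence that a distal in-gene summit could fall in amounted to 54.1 Mb, or 39.4% of the known sequence. At the distance threshold, the members just inside lay 2001 bp from a TSS in Ptpmeg2 (score 94.5), 2003 bp in the overlapping genes Irk1 and CG46310 (132) and 2005 bp in Agpat2 (100.1). The in-gene peaks just outside lay at 1999 bp in dap (156), 1998 bp in twi (93.9) and 1997 bp in the overlapping genes Pxd and Adsl (93.0).

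The windows below, with 50 bp on each side of a summit, show what the bound sequence looks like. The first 6 belong to the highest-scoring distal in-gene peaks on X, 2L, 3L and 3R, and the last 4 to the highest-scoring peak of the genes on these arms with the most such peaks. They are the plus strand of the RefSeq genome of the dm6 assembly, 5′ to 3′, and capitals mark matches on either strand to the 10 short motifs counted further on.
CG32486, 3L:3060756-3060856: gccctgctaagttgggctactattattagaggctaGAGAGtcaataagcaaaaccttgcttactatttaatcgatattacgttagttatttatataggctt
Hr4, X:1951864-1951964: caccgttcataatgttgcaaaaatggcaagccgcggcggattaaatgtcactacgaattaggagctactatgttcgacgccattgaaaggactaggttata
Hr4, X:1947697-1947797: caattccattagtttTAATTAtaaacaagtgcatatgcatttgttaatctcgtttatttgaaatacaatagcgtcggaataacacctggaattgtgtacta
Raf, X:2300665-2300765: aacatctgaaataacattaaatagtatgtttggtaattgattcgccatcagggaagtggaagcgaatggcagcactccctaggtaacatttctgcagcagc
CG32264, 3L:3785192-3785292: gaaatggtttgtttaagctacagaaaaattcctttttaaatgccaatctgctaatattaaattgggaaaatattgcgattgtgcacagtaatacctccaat
dpp, 2L:2433613-2433713: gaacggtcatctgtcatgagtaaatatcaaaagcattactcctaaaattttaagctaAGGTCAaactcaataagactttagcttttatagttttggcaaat
kirre (and CG32795), X:2786706-2786806: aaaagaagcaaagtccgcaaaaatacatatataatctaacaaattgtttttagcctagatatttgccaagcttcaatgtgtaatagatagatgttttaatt
Snoo, 2L:7925534-7925634: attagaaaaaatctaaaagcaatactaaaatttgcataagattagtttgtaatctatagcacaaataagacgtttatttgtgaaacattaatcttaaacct
Tet, 3L:2824166-2824266: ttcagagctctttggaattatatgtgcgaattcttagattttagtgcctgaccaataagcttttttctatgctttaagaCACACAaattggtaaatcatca
CG43658, X:17491293-17491393: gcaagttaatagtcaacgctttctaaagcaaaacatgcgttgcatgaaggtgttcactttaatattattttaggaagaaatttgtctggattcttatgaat
Their GC content ran from 22.8% in the Snoo window to 43.6% in the higher Hr4 window.

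The strongest distal in-gene peak lay in the first intron of dnr1, which encodes a negative regulator of innate immune signalling (2R, peak 22569709 to 22570408, score 1634). It ranked 18 in the optimal list and 8, 68 and 14 in replicates 1, 2 and 3. The next lay in the first introns of CG12769 (2R, score 1461, rank 28) and CG32486 (3L, 1388, rank 31). The CG32486 peak stood alone: the nearest other summit was 11413 bp away, and the intron that holds it is 12037 bp long. The nuclear receptor gene Hr4 held both the fourth strongest peak (score 1267, rank 45) and a further one nearer its 5′ end (941, rank 110). Both are in an intron of 10387 bp that is intron 1 or 2 depending on the transcript.

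The other 10 of the 15 strongest peaks included several in genes of signalling and chromatin proteins. Raf, the MAP kinase kinase kinase of the receptor tyrosine kinase pathway, had a peak of score 1064 in an intron of 43637 bp, and ranked 121, 54 and 79 in the replicates. The gene of the BMP ligand dpp had one of score 936 in its 26006 bp first intron (ranks 130, 78 and 135), and shn, which encodes a zinc finger factor of the Dpp pathway, one of score 954 (125, 100 and 100). Pak3, a p21-activated kinase gene, followed at 931. The SET domain gene upSET (score 921) and the histone kinase gene JIL-1 (824) had their peaks in later introns. The upSET peak was the most isolated of the 15, with 47631 bp to the next summit. That of baz, the gene of the polarity protein Par-3 (score 853), was the only one in an exon. It also lay in a first intron of 27800 bp in another baz transcript. The other hosts of the 15 were babos (1023), CG32264 (956) and CG42238 (855). All 3 replicates had a match, by an overlap of 50% of both lengths, for each of the 15. At the other end, the 3 weakest members had the lowest score of the optimal list, 87.7, and lay in drn, Dscam1 and Fhos. Each was matched in 1 replicate.

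The peaks lay in a minority of the coding genes with distal sequence, and these genes were longer than the rest. A host is any protein-coding gene whose span holds the summit, and 795 genes were hosts. They were 14.3% of the 5548 coding genes that have any sequence over 2000 bp from every TSS, among 13968 coding genes in all. The replicates had 749, 807 and 757 hosts (771 ± 31.4, SD, n = 3). Of the optimal hosts, 623 were hosts in all 3 replicates and 4 in none. Of the hosts, 330 held 1 peak, 292 held 2 to 4, and 173 held 5 or more. The last group held 1287 of the 2331 peaks (55.2%). These 173 genes were picked by their number of peaks, and their share of the distal sequence was not set beside this percentage. Most peaks had 1 host (2257), while 71 lay in a pair of overlapping genes and 3 in more. Host genes had a median length of 27161 bp, against 5456 bp for the genes with distal sequence and no peak.

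Genes with more distal sequence also had more peaks per base of it. When genes were ranked by the amount of sequence over 2000 bp from every TSS and divided into 4 equal groups, hosts made up 44.3% of the group with the most, 11.5% of the next, and 1.30% and 0.216% of the other two. The density of optimal peaks in that sequence was 46.3 per Mb in the group with the most and 32.5 in the next, against 8.42 and 5.74 per Mb in the others. The last 2 values rest on 19 and 3 peaks. Exons and introns were not separated here, and their part in these densities was not tested. Within the top group, a summit within 500 bp of a TSS of the same gene was present in 306 of 615 hosts (49.8%), against 159 of 772 genes without a distal peak (20.6%). In the replicates the shares were 50.9% ± 5.48 for hosts and 21.5% ± 2.76 for the other genes (SD, n = 3), and the ranges did not overlap. The lengths of the genes were not matched further within the group, and their part in this was not tested.

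Among the genes with the most peaks were several that encode transcriptional regulators and cell adhesion proteins. kirre, which encodes an immunoglobulin-family adhesion protein of myoblast fusion (X, 2740384 to 3134532, plus strand), held 26, and 23, 25 and 20 in replicates 1, 2 and 3. All 26 were in later introns. kirre has 301 kb of sequence over 2000 bp from a TSS, and its density was the lowest of the 15 leading hosts, at 0.863 peaks per 10 kb. Snoo, a gene of the Ski and Sno family of transcriptional cofactors in TGF-beta signalling (2L, 7891187 to 7984196, minus strand), held 24, and 18, 23 and 24 in the replicates. All 24 lay where the intron is the first in some transcripts and later in others. Tet, which encodes the fly member of the TET dioxygenase family (3L, 2786207 to 2879158, minus strand), also held 24, and 20, 24 and 23 in the replicates. Of these, 16 were in later introns, and 14 were matched in all 3 replicates. The corepressor gene sbb had 20, with 22, 23 and 21 in the replicates, which was more than in the optimal list in each. When only peaks matched in both of the other replicates were kept, kirre held 13, 15 and 17 peaks without replicate 1, 2 and 3, Snoo 14, 11 and 9, Tet 17, 17 and 15, and sbb 9, 9 and 8.

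**Figure D1:**
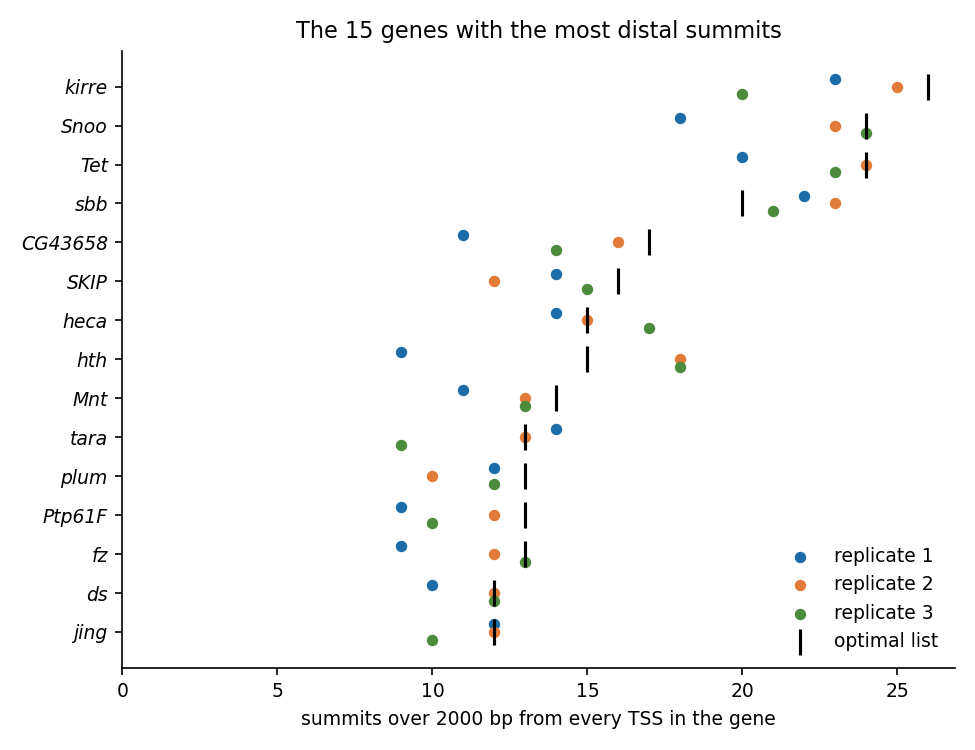
Number of summits over 2000 bp from every TSS (x axis) in the 15 protein-coding genes that hold the most in the optimal list (y axis); points are replicates 1 to 3, each limited to its 7283 highest peaks, and the vertical bar is the optimal list. kirre leads with 26 in the optimal list and 20 to 25 in the replicates, and hth spreads most, at 9 in replicate 1 and 18 in both others.

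Below these 4 genes the counts were close together, and neighbours in the order did not differ beyond the spread of the replicates. CG43658 held 17 (11, 16 and 14 in the replicates), the potassium channel partner gene SKIP 16 (14, 12 and 15), and heca, which acts in imaginal and progenitor cells, 15 (14, 15 and 17). The Hox cofactor gene hth also held 15, but 9 in replicate 1 against 18 in each of the others, the widest spread of the 15 hosts. Mnt, which encodes the repressor of the Myc and Max network, held 14 (11, 13 and 13). The chromatin and cell cycle regulator gene tara, the immunoglobulin-family gene plum, the tyrosine phosphatase gene Ptp61F and fz, the gene of the Frizzled receptor, held 13 each. The atypical cadherin gene ds and the zinc finger gene jing held 12 each. Keeping only peaks matched in both of the other replicates left 6, 2 and 5 peaks in Ptp61F without replicate 1, 2 and 3, 4, 6 and 8 in tara, 6, 5 and 5 in plum, and 10, 8 and 9 in fz. In the same order it left 10, 8 and 9 in CG43658, 7, 9 and 6 in SKIP, 10, 10 and 8 in heca, 10, 5 and 7 in hth, 7, 7 and 6 in Mnt, 8, 7 and 7 in ds, and 9, 8 and 10 in jing. The intron class of the peaks differed among these genes: all peaks of tara and jing were in first introns, and all of plum and ds in later ones. How much distal sequence of each class a gene has was not set beside such counts, for these or other genes named. A gene with distal sequence in 1 class can have peaks only there.

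Ranking by density among hosts with a minimum number of peaks favours genes with little distal sequence. The genes below are therefore no sign that shorter genes are denser, and over all genes the order was the reverse, as given above. Among hosts with 5 or more peaks, Mnt was the densest, at 6.69 per 10 kb of sequence over 2000 bp from a TSS, with 14 peaks in 20.9 kb. Reck, named after a mammalian inhibitor of matrix metalloproteinases, had 5.93 per 10 kb (6 peaks, and 6, 6 and 5 in the replicates). The gene of the mRNA decay factor Tis11 had 5.78 (7 peaks, and 7, 4 and 6). Pits, the gene of a partner of the repressor Tramtrack, had 5.59 (6 peaks, and 7, 6 and 5) with a highest score of 816, and vri, a bZIP repressor gene of the circadian clock, 4.74 (5 peaks, and 5, 5 and 4). All 6 peaks of Pits and all 5 of vri lay in first introns. Matched in all 3 replicates were 5 peaks of Mnt, 5 of Reck, 1 of Tis11, 5 of Pits and 2 of vri.

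Fixed groups of genes differed widely in how many of their members were hosts. The lists and these peaks were chosen with results of these data known, so the counts are given as description. They are read beside the 14.3% of coding genes with distal sequence that were hosts, the median of 2.00 peaks per host, and the 43.1 peaks per Mb of all in-gene distal sequence. Many listed genes have at least 8748 bp of distal sequence, and 44.3% of all genes with that much were hosts. For such genes 14.3% is too low a share to compare with. Gene length was not matched between the lists, so densities are given beside the counts.

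Of 14 ecdysone response genes, 13 were hosts, with 70 peaks in all and a median of 5 per host. Ecdysone is the steroid hormone that drives metamorphosis. Their density was 108 per Mb in the optimal list and 107 ± 4.72 in the replicates (SD, n = 3). Hr4 held 9 in the optimal list and 9 in each replicate. Eip75B, another nuclear receptor gene, held 8, and 9, 11 and 9 in the replicates, with a highest score of 795. The coactivator gene tai held 8 (9, 7 and 9) and the nuclear receptor gene ftz-f1 8 (4, 7 and 7). The receptor gene EcR held 6 (8, 5 and 5), and Eip74EF 5, against 11, 6 and 9 in the replicates. The transcription factor gene br stood apart, with 1 peak of score 99.7 in 68.7 kb. usp, the receptor partner gene, has 0.514 kb of such sequence and held none.

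Of 19 genes of Notch, EGFR, Wingless and Dpp signalling with distal sequence, 13 were hosts. They had 63 peaks, a median of 4.00 per host, and a density of 149 per Mb (144 ± 3.62 in the replicates, SD, n = 3). Receptors led the list. fz held 13 (9, 12 and 13 in the replicates), the Dpp receptor gene tkv 9 (9, 9 and 11) and the EGF receptor gene Egfr 7 (7, 6 and 6), all of the Egfr peaks being in first introns. Notch itself (N) held 5 (5, 5 and 4), and its ligand genes Delta and Ser 4 each. Among ligands of other pathways, dpp held 3 in every list and wg 1 in every list. The Wingless pathway transcription factor gene pan, on chromosome 4, held none in 37.9 kb, and the Notch antagonist gene numb none in 17.4 kb; both were without a peak in the replicates too.

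Transcription factor genes were split. Of 12 homeotic and patterning genes, 6 were hosts, with 31 peaks at 76.7 per Mb. The replicate spread was wide (64.3 ± 17.3 per Mb, SD, n = 3), and hth held 15 of the 31. Antp held 9 (5, 6 and 8 in the replicates) and Ubx 2 (2, 0 and 0). abd-A held none in 18.9 kb in any list, and Dll none in the optimal list and 1 in replicate 2. Of 18 other developmental transcription factor genes, 12 were hosts, with 81 peaks at 137 per Mb (122 ± 5.86 in the replicates, SD, n = 3) and a median of 4.50 per host. After sbb and Mnt came luna, a Krüppel-like factor gene, with 11 (9, 11 and 11), and ush, a GATA cofactor gene, with 11 (9, 9 and 11). The zinc finger gene lola held none in 46.5 kb and the wing selector gene vg none in 12.2 kb, in any list.

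Of 14 chromatin genes, 4 were hosts: Tet with 24 peaks, jing with 12, the trithorax gene trx with 6 (4, 5 and 6 in the replicates) and the Polycomb group gene ph-p with 1. Their 43 peaks gave the list the highest density of the 10, 166 per Mb (155 ± 7.74 in the replicates, SD, n = 3), although Tet alone held over 50% of them. Pc and mod(mdg4) held none in 9.32 and 8.72 kb. Of 22 adhesion and axon guidance genes, 14 were hosts, with 77 peaks at 49.9 per Mb (41.9 ± 2.28, SD, n = 3) and a median of 4.00. After kirre came Fas3 with 10 (8, 9 and 11), all in first introns, and the teneurin gene Ten-a with 6 (6, 7 and 5) in 236 kb. The receptor phosphatase gene Lar held none in 126 kb and the second teneurin gene Ten-m none in 96.5 kb, in any list.

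Genes of neuronal excitability had the lowest density of the 10 lists. Of 16 ion channel and synapse genes, 2 were hosts, with 3 peaks in 638 kb, which is 4.70 per Mb (5.22 ± 0.904 in the replicates, SD, n = 3). The acetylcholine receptor gene nAChRalpha6 held 2 (3, 1 and 2) and the synaptic scaffold gene dlg1 1 (0, 2 and 1). The potassium channel gene Sh held none in 106 kb and the sodium channel gene para none in 69.9 kb, in any list. The muscle and cytoskeleton list had 5 hosts of 12 and 12 peaks at 31.1 per Mb (21.6 ± 6.52 in the replicates, SD, n = 3) with a median of 3.00. Zasp52 held 4 (2, 1 and 5), the spectraplakin gene shot 3 (1, 3 and 2) and the spectrin gene kst 3 (1, 2 and 2), while the giant muscle protein genes Msp300 and sls held none in 78.6 and 69.3 kb. RNA-binding protein genes had 10 hosts of 15, with 33 peaks at 25.2 per Mb (24.5 ± 0.765, SD, n = 3) and a median of 1.5. heph, the polypyrimidine tract-binding protein gene, held 9 (9, 5 and 9), the splicing factor gene Rbfox1 7 (6, 4 and 4), and shep and sm 5 each, whereas bru3 held none in 255 kb in any list and mbl none in 133 kb in the optimal list. Genes of cAMP and cGMP signalling had 8 hosts of 12, with 13 peaks at 26.9 per Mb (28.2 ± 1.19, SD, n = 3) and a median of 1.00. The phosphodiesterase genes dnc and Pde11 held 3 each and Pde9 2, and the cyclase gene Ac78C and the phosphodiesterase gene Pde6 none. Keeping only peaks matched in both of the other replicates left 1, 1 and 0 ion channel hosts without replicate 1, 2 and 3, 5, 5 and 6 RNA-binding protein hosts, and 3, 3 and 3 hosts of cAMP and cGMP signalling.

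**Figure D2:**
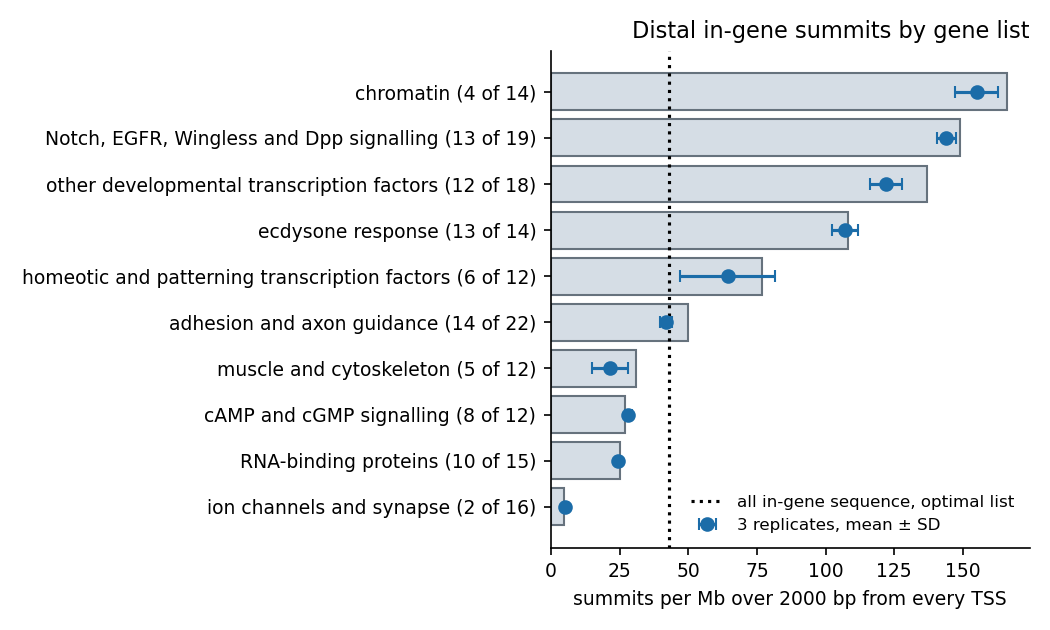
Distal in-gene summits per Mb of sequence over 2000 bp from every TSS (x axis) for 10 lists of genes (y axis), with the number of hosts of the genes with such sequence in parentheses. Bars are the optimal list, points the mean ± SD of the 3 replicates, and the dotted line the 43.1 per Mb of all in-gene sequence; the lists run from 166 per Mb for chromatin genes to 4.70 for ion channel and synapse genes.

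Inside genes, distal summits were denser than between genes at the same minimum distance from TSSs. The density was 38.6, 42.4 and 41.3 per Mb in genes in replicates 1, 2 and 3, against 25.1, 26.6 and 27.1 per Mb between genes. The groups did not overlap. The difference was 14.5 per Mb (40.8 ± 1.93 in genes and 26.3 ± 1.04 between genes, SD, n = 3), higher in 3 of 3 replicates (exact two-sided sign-flip permutation p = 0.25). With 3 replicates that test cannot give a p below 0.25, so none of the comparisons of this kind can pass a threshold of 0.05.

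Introns carried nearly all of the distal in-gene peaks, and first introns carried them at over 2 times the density of later ones. Intron positions were classed over all transcripts of the host genes. Sequence that is a first intron in every transcript whose intron covers it held 714 peaks, 30.6% of them, in 16.2% of the sequence. Later introns held 982 peaks, 42.1%, in 48.6% of the sequence. A further 597 (25.6%) lay where the intron is the first of some transcripts and a later one of others, which is 11.8% of the sequence. Exons made up 23.4% of the sequence and held 38 peaks (1.63%): 25 in 3′ UTRs, 8 in 5′ UTRs and 5 in coding sequence, and 11 of the 38 were also intronic in another transcript.

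The density in first introns was 75.1, 80.5 and 80.2 summits per Mb in replicates 1, 2 and 3, against 32.9, 36.2 and 35.4 per Mb in later introns. No first-intron value came near a later-intron value. The difference was 43.8 per Mb (78.6 ± 3.07 for first and 34.8 ± 1.72 for later introns, SD, n = 3), higher in 3 of 3 replicates (exact two-sided sign-flip permutation p = 0.25, the smallest 3 replicates allow). Sequence of the mixed class had 87.5 ± 4.94 per Mb, exons 3.24 ± 0.474, and sequence between coding genes 26.3 ± 1.04 (SD, n = 3). Later introns were thus closer to sequence between genes than to first introns.

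**Figure D3:**
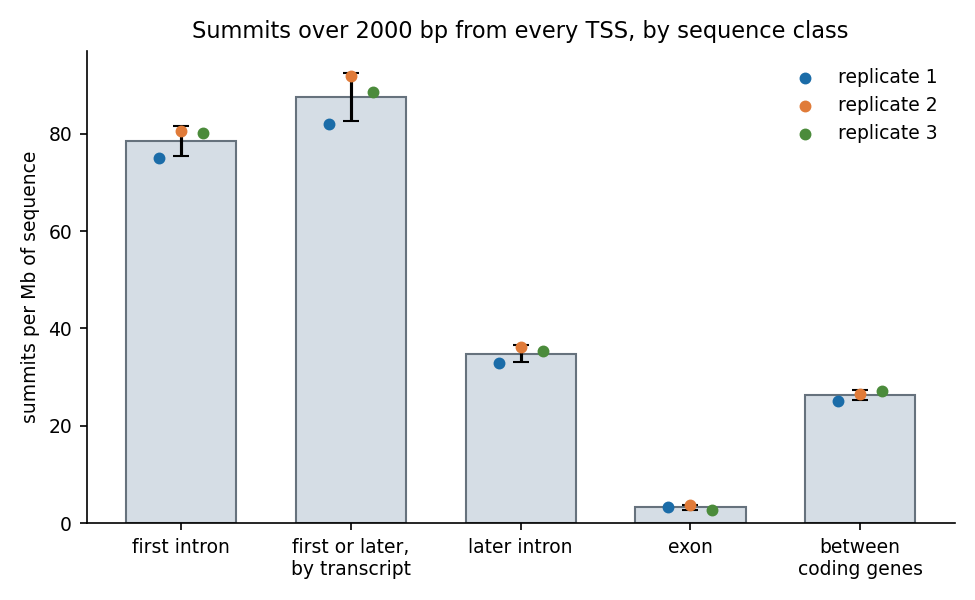
Summits per Mb of sequence over 2000 bp from every TSS (y axis, from 0) by sequence class (x axis). Bars are the mean and error bars the SD of the 3 replicates, shown as points; first introns average 78.6 per Mb, later introns 34.8, exons 3.24 and sequence between coding genes 26.3.

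First introns lie nearer to TSSs than later ones, so the classes were compared at matched distance, without the Y chromosome. From over 2000 to 3000 bp from the nearest TSS the density was 93.4 ± 3.46 per Mb in first introns and 48.4 ± 1.20 in later introns (SD, n = 3). From there to 5000 bp it was 85.3 ± 5.94 in first introns and 45.2 ± 2.96 in later introns, and from over 5000 to 10000 bp it was 87.4 ± 5.18 in first introns and 43.6 ± 2.02 in later introns. From over 10000 to 20000 bp it was 69.8 ± 1.52 and 43.5 ± 2.62 in first and later introns. The order was the same in each of these bins and the replicate ranges did not overlap. Over 20000 bp, where first introns have 0.624 Mb and held 13 optimal peaks, the values were 20.8 ± 4.24 for first and 13.9 ± 1.29 for later introns. Between genes, the density was 42.0 ± 1.14 per Mb in the nearest bin and 4.50 ± 0.339 over 20000 bp. Later introns were close to sequence between genes from over 5000 to 10000 bp (43.6 ± 2.02 against 39.9 ± 2.25 per Mb) and further from it from over 10000 to 20000 bp (43.5 ± 2.62 against 23.5 ± 0.388).

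**Figure D4:**
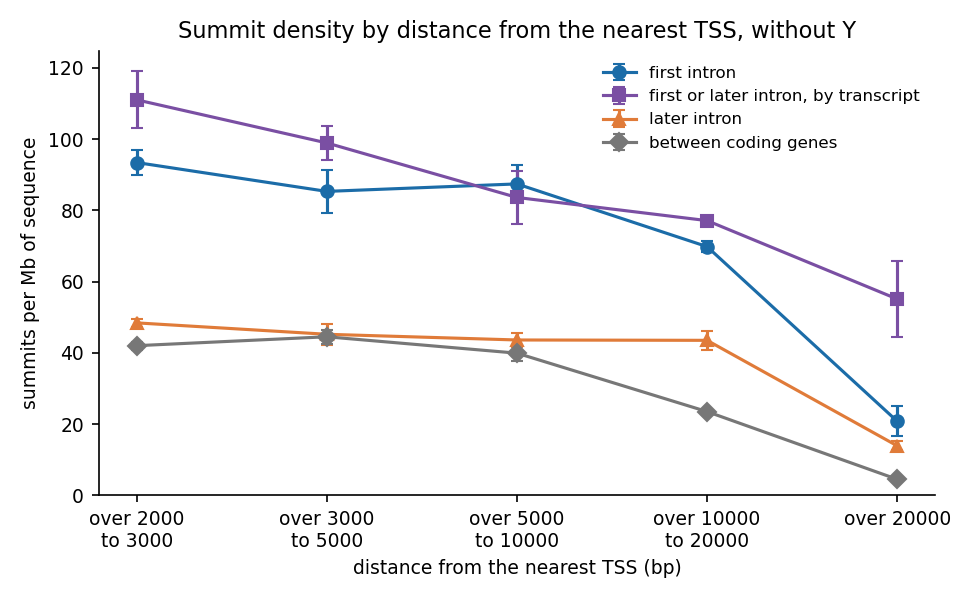
Summits per Mb (y axis) by distance from the nearest TSS in 5 bins (x axis, bp) for first introns, introns that are first or later depending on the transcript, later introns and sequence between coding genes, without Y. Points are means and error bars SDs of the 3 replicates; first introns lie above later introns in every bin, from 93.4 against 48.4 per Mb in the nearest to 20.8 against 13.9 in the farthest.

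The length of the intron changed the size of the contrast. In introns up to 10000 bp long the density was 92.9 ± 2.69 per Mb for first and 31.6 ± 1.40 for later introns (SD, n = 3). In introns over 50000 bp it was 40.0 ± 1.82 for first and 29.1 ± 0.814 for later introns. Restricting the comparison to genes that have at least 2000 bp of both classes left 453 genes. In their pooled sequence the density was 58.5 ± 3.27 per Mb in first and 30.2 ± 1.11 in later introns (SD, n = 3). Gene by gene the picture was less uniform. In the optimal list the first introns were denser in 106 of these genes and the later introns in 86, while 261 had no peak in either. The replicates gave 104, 104 and 109 genes with denser first introns and 82, 87 and 82 with denser later introns.

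Distal in-gene peaks were spread over the large arms, from 50.9 per Mb of eligible sequence on X (48.1 ± 2.95 in the replicates, SD, n = 3) and 46.9 on 2L (43.7 ± 2.99) to 39.5 on 3R (37.8 ± 1.82). Chromosome 4 held 2 of them, 2.74 per Mb, and Y none. Of the 2331 summits, 54 also lay in a noncoding RNA gene and 5 in an annotated transposable element. Summits fell in soft-masked repeats in 26.8% of cases, against 21.2% of eligible in-gene sequence.

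Distal in-gene peaks came in groups about as often as other peaks did. Another optimal summit lay within 2000 bp of 1153 of them (49.5%), against 51.9% of the other peaks and 51.1% of all peaks. In replicates 1, 2 and 3 the shares were 49.1%, 49.1% and 51.0% of distal in-gene peaks, against 51.7%, 49.5% and 51.1% of the others. The difference was -1.02 percentage points (49.7% ± 1.12 and 50.8% ± 1.12, SD, n = 3), lower in 3 of 3 replicates (exact two-sided sign-flip permutation p = 0.25) but smaller than its own spread of 1.36 points. The direction depended on the definition: with neighbours counted within 5000 bp the difference was 5.63 points, with overlapping peaks merged 0.480 points, and with a distance of over 1000 bp from every TSS 3.06 points. The median distance to the nearest optimal summit was 2040 bp, and 2388 bp to the nearest distal in-gene summit.

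Linked at gaps of up to 2000 bp, the 2331 peaks formed 1704 runs. Of these 1282 were single peaks, 291 pairs and 131 runs of 3 or more, which held 467 peaks. The longest, in the first introns of tara (3R, 16231420 to 16237025), had 7 summits with gaps of 200 to 1899 bp and scores of 90.9 to 482; 2 of them were matched in all 3 replicates. Runs of 6 were found in Tet, Raf, Mnt and Tis11. That of Raf (X, 2297742 to 2304113) contained the strongest Raf peak described above, and its weakest member had a score of 133. In Tis11 the 6 summits were evenly spaced, 1236 to 1630 bp apart, and 1 of them was matched in all 3 replicates.

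The scores of distal in-gene peaks ran lower than those of the other peaks as 1 group, by a small amount. The authors' score had a median of 148 (quartiles 111 and 229) in distal in-gene peaks, against 155 (112 and 259) in the others. Ranked within each replicate list, from 0 for the highest peak to 100 for the lowest, the median percentile was 51.7, 53.1 and 51.5 for distal in-gene peaks, against 49.3, 48.5 and 49.3 for the others. The difference was 3.05 percentile points (52.1 ± 0.896 and 49.1 ± 0.454, SD, n = 3), in the same direction in 3 of 3 replicates (exact two-sided sign-flip permutation p = 0.25). The difference was concentrated at the top of the list. With the list divided by score into 10 bins of equal size, distal in-gene peaks made up 22.4% of the highest bin and 30.1% of the next, and 31.1% to 34.9% of each of the other 8. In the replicates they made up 21.7% ± 1.12 of the highest bin and 31.9% ± 2.55 of the lowest (SD, n = 3). Within the class, the median score was 156 in first introns, 154 in the mixed class, 139.7 in later introns and 145 in exons.

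Replicate support of distal in-gene peaks was below or close to that of the other peaks as 1 group, depending on how a match was defined. It was close to that of distal peaks between genes. By an overlap of 50% of both lengths, 986 distal in-gene peaks (42.3%) were matched in all 3 replicates, 709 in 2, 318 in 1 and 318 in none. Of the other peaks 46.4% were matched in all 3, and of all optimal peaks 45.1%. The share matched in replicates 1, 2 and 3 was 62.5%, 69.5% and 69.3% of distal in-gene peaks, against 69.4%, 69.3% and 72.6% of the others. The groups overlapped, and the difference of -3.32 points (67.1% ± 3.96 and 70.4% ± 1.88, SD, n = 3) was lower in 2 of 3 replicates (exact two-sided sign-flip permutation p = 0.5). The difference was -6.88 points in replicate 1 and 0.213 in replicate 2. When summits within 100 bp were taken as a match, 55.4% of distal in-gene peaks and 56.5% of the others were found in all 3, and the mean difference was -0.284 points. By the overlap of 50%, the gap was wider when each list, replicates included, was cut to its 3641 highest-scoring peaks, at -6.90 points. The share was 58.4% ± 2.97 of distal in-gene peaks and 65.3% ± 1.99 of the others (SD, n = 3), lower in 3 of 3 replicates (exact two-sided sign-flip permutation p = 0.25). In the cut replicate lists the median rank percentile was 55.3 for distal in-gene peaks and 47.8 for the others. The part of the cut in the wider gap was not tested. Leaving out a replicate, by keeping the peaks matched in both others, left 1298 distal in-gene peaks without replicate 1, 1200 without replicate 2 and 1169 without replicate 3.

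**Figure D5:**
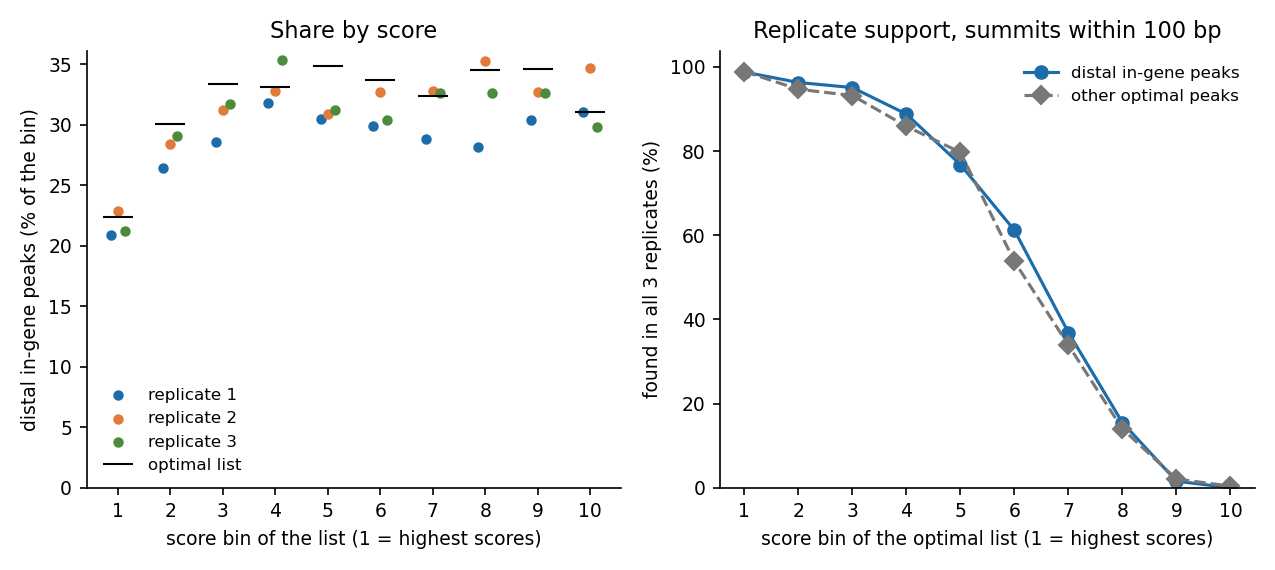
Left, distal in-gene peaks as a percentage of each of 10 bins of the list by score (x axis, highest first), for the 3 replicates (points) and the optimal list (bars); the highest bin of the optimal list has 22.4%. Right, percentage of distal in-gene and of other optimal peaks with a summit within 100 bp among the 7283 highest peaks of all 3 replicates, by bin; the classes fall together, with 98.8% and 98.9% in the highest bin and 0% and 0.398% in the lowest.

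Support varied more with score than with position, in part by construction. All optimal peaks were among the 7283 highest of the pooled list, and matches were sought only among the 7283 highest of each replicate. A weak optimal peak can therefore fall below the cut of a replicate without being absent from it. The weak drn peak had a summit within 100 bp in replicates 1, 2 and 3, at ranks 10497, 8170 and 8949. How much of the fall with score the cut accounts for was not tested. By the overlap of 50%, the shares matched in all 3 replicates were 78.5% of distal in-gene peaks and 76.8% of others in the highest of 10 score bins. In bins 3, 4 and 5 they were 36.6%, 55.6% and 67.7% of distal in-gene peaks, against 50.5%, 61.7% and 73.4% of others, and in bin 6 they were 64.5% and 60.0%. With summits within 100 bp, 98.8% of distal in-gene peaks and 98.9% of others in the highest bin were found in all 3 replicates. In bins 2, 3 and 4 the shares were 96.3%, 95.1% and 88.8% of distal in-gene peaks, against 94.7%, 93.2% and 85.9% of others. Bin 5 went the other way, with 76.8% and 79.7%. In bin 6 the shares were 61.2% of distal in-gene peaks and 53.8% of others, and in bin 9 they were 1.59% and 2.10%. First-intron peaks were matched in all 3 in 58.4% of cases by this measure, those of later introns in 54.3% and those of the mixed class in 53.9%.

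The sequence under distal in-gene summits was poor in G and C. Windows with 50 bp on each side of the summits of distal in-gene peaks averaged 33.0% GC (33.7% ± 0.382 in the replicates, SD, n = 3), against 40.2% over all 383459 windows of that length in eligible intron sequence. Windows of distal peaks between genes averaged 32.6% and those of peaks within 500 bp of a TSS 37.5%. GC was lower in stronger peaks, which is given without a test: the 582 with the highest scores averaged 31.7%, and the following 3 groups of 583 averaged 32.7%, 33.4% and 34.3%.

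The shares of the 10 short motifs, searched on both strands, lay on either side of those of intron sequence at large. GAGAG, the core recognised by the GAGA factor, was present in 11.5% of windows of distal in-gene peaks and in 11.4% of all intron windows, while 18.5% of promoter windows had it. In the replicates' windows of distal in-gene peaks its share was 12.6% ± 0.283 (SD, n = 3). The homeodomain core TAATTA was present in 8.28% against 7.42% of all intron windows, and the GATA-type motif GATAAG in 4.63% against 4.07%. The replicates had 7.66% ± 0.829 for TAATTA and 4.86% ± 0.466 for GATAAG (SD, n = 3). TGANTCA, the AP-1 type motif, was present in 3.22% against 2.06%, and in 2.94% ± 0.272 of the replicates' windows (SD, n = 3). The nuclear receptor hexamer AGGTCA was present in 2.19% against 2.53%. The repeat CACACA was less frequent, at 6.35% against 9.39%, and so was the E-box CACGTG, at 0.429% against 1.10%. The replicates had 2.05% ± 0.179 for AGGTCA, 6.92% ± 0.677 for CACACA and 0.635% ± 0.172 for CACGTG (SD, n = 3). The Zelda-type motif CAGGTAG was present in 0.558% against 0.428%, and the Grainy head-type motif AACCGGTT in 0.172% against 0.0902%. The DREF-type motif TATCGATA was present in 0.129% against 0.216%, beside 1.28% of promoter windows. These 3 shares rest on 13, 4 and 3 windows of optimal peaks. In the replicates they were 0.422% ± 0.0893, 0.105% ± 0.0223 and 0.198% ± 0.0362 (SD, n = 3), each within its SD of the share of all intron windows. The windows differ in base composition, and its part in these shares was not tested. A window without a match says only that these letters are absent from it.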

How the data were processed

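The authors deposited narrowPeak lists for each of the 3 replicates, for the pooled replicates and for an optimal set chosen by irreproducible discovery rate (IDR), per the file descriptions. The sources used here do not give the aligner, peak caller or IDR threshold. The score is the signal value of each peak as the authors deposited it, and since lists differ in its scale, scores were compared within lists only. Each replicate and pooled list has 30000 entries, background included by construction; the 7283 highest of each replicate were used, as many as the optimal list holds. Positions are 1-based on dm6.

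TSSs and genes came from Ensembl release 115 without transposable elements and pseudogenes, and sequence from the RefSeq genome of the same assembly. Summits were counted per Mb of sequence over 2000 bp from every TSS on 7 arms. Replicate contrasts were tested by exact two-sided sign-flip permutation over 3 replicates; nothing in the labels tells how separately the animals were reared, so p-values measure only the spread between these samples. The replicates share a control, and the optimal list was made from them, so their agreement is not independent of it. Steps were tested on simulated data. Python 3.11.15, numpy 2.4.6 and pandas 2.3.3 were used. The members and gene lists were chosen with earlier results of these data known. Named genes were the 15 hosts with the most peaks, the hosts of the 15 highest peaks, the 5 densest hosts, the hosts of the 5 longest runs, and in each list the 3 leading hosts and up to 2 genes without a peak; EcR, Eip74EF, br, N, Delta, Ser, wg and ph-p were named after their values were seen. 1 listed symbol, cut, was not matched, and Dl was matched as Delta. Alternatives changed the TSS distance and annotation, the number of peaks, merging, the match, the neighbour distance, the intron class and the replicates used. Lists on dm3 were not used.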

Additional observations from a re-analysis of the deposited data

How the results depend on the processing

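The 14.5 and 43.8 per Mb differences of density, in genes over between genes and first over later introns, kept their direction under every alternative run, at 8.06 to 24.8 and 23.8 to 81.2 per Mb. The lowest and highest values came from the 3641 highest-scoring peaks of each list and from 2 times as many replicate peaks. These settings change the number of peaks counted, and so every density. First and later introns had 39.2 and 15.4 per Mb in the former and 159 and 78.3 in the latter. Sequence in and between genes had 19.4 and 11.4, and 86.9 and 62.2. Relative to the lower density, both contrasts were larger in the former. The rank difference of 3.05 ran from 1.78 over 1000 bp from every TSS to 7.57 among the 3641 highest, and the support difference of -3.32 points from -6.90 among the same peaks to -0.284 with summits within 100 bp. Both kept their direction in the alternatives run, whereas the spacing difference of -1.02 points turned to 3.06 with a distance of over 1000 bp from every TSS, to 0.480 with overlapping peaks merged and to 5.63 with neighbours within 5000 bp. The count of 2331 peaks was 1372 over 5000 bp from every TSS, 1120 among the higher-scoring 3641, and 1169 to 1298 when 1 replicate was left out, a set that needs a match in both others. Hosts numbered 479 over 5000 bp from every TSS. Among the 15 leading hosts, the number of peaks changed by over 1.5 times in 9, 12 and 13 without replicate 1, 2 and 3, and so did the hosts of 3 of 10 lists each time, those of ion channels, RNA-binding proteins and cAMP and cGMP signalling. Alternatives chosen after seeing the data left out Y (13.2 and 44.7 per Mb for the 2 densities) or also masked repeats (9.46 and 42.6), counted the TSSs of every transcript (13.4 and 44.7), or kept introns from over 2000 to 20000 bp (40.6). No paired analysis was possible because the series has 1 group, so no samples of different groups share a number; the contrasts between peak classes were taken within each replicate. With depth unknown, a gene without a peak may hold sites below the lowest optimal score, 87.7.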
